A study of Mus musculus with 2 samples.

Results

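The LIF receptor and STAT3 pathway was followed through 10 genes named for their roles in it. They run from the ligand (*Lif*) through the receptor chains (*Lifr*, *Il6st*), the receptor kinases (*Jak1*, *Jak2*) and the transcription factor (*Stat3*) to an inhibitor (*Socs3*) and target genes (*Pim1*, *Pim3*, *Junb*). All 10 were found among the 21935 gene symbols of the expression tables. They were measured in mouse embryonic stem (ES) cells of the R1 line that had been infected with a lentivirus carrying a short hairpin RNA and selected with puromycin. The shKdm5b cells carried a hairpin against *Kdm5b*, which encodes the H3K4 demethylase KDM5B, and the shLuc control cells carried one against luciferase. Both cultures were grown on irradiated mouse embryonic fibroblasts with LIF and were then kept for 72 h in medium without LIF, so the comparison is between depleted and control cells that have both lost the cytokine. The labels give low-attachment dishes for this step, and the study's methods give either these or gelatin-coated dishes. Each culture was a selected population of infected cells, and the number of hairpins used is not given in the sources used here.

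LIF is the cytokine that keeps mouse ES cells self-renewing in serum. It binds LIFR, which pairs with gp130 (the product of *Il6st*), and kinases of the JAK family bound to the receptor tails phosphorylate STAT3, which enters the nucleus and switches on its targets. One of these targets is *Socs3*, whose product blocks the receptor complex and so limits the signal. Phosphorylation is not visible in RNA, so the values below are transcript levels and not a measure of signalling.

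Polyadenylated RNA was sequenced from 1 library per condition. The shLuc library held 78172698 mapped reads and the shKdm5b library 72702698, of which 67.9% and 66.3% lay on genes. With 1 library each, no difference has a replicate check, a library and its condition cannot be told apart, and no test was made. Levels are given in RPKM, which is the read count divided by transcript length and by library depth. A ratio is the log2 of the shKdm5b level over the shLuc level with 0.1 RPKM added to both, which understates the change of low genes. The range after a ratio is a 95% interval for counting error only, computed from the reads of both libraries by the Clopper-Pearson method. It leaves out the added 0.1 RPKM, so it is not centred on the printed ratio, most of all for low genes. A gene was called higher or lower when it differed by more than 1.5-fold and had an RPKM above 1 in at least 1 library. *Kdm5b* itself had 104 RPKM in shLuc and 3.01 RPKM in shKdm5b cells. The median ratio of the 11804 genes with RPKM above 1 was -0.21, and that of genes above 1 RPKM in both libraries was -0.17. Setting the latter to 0 (the scaling to the median gene) moves ratios up, and its effect is given with the gene lists. In bulk RNA, fewer cells of one type and less RNA per cell cannot be told apart.

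Of the 10 genes, 9 had an RPKM above 1 and all but *Lif* could be called. *Lifr*, *Stat3*, *Socs3*, *Pim3* and *Junb* were lower in shKdm5b cells, and *Jak1* and *Jak2* were higher. The 5 lower genes stand against a background of 32.0% of all genes called lower, and the 2 higher genes against 16.3% called higher. After the scaling to the median gene the same 5 and 2 genes were called, beside 25.5% and 22% of all genes. The median ratio of the 10 genes was -0.68, and that of the 9 above 1 RPKM was -0.79. Ratios within the pathway thus differed in direction, above 0 for *Lif*, *Jak1* and *Jak2* and below 0 for the other 7 genes.

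**Figure D1:**
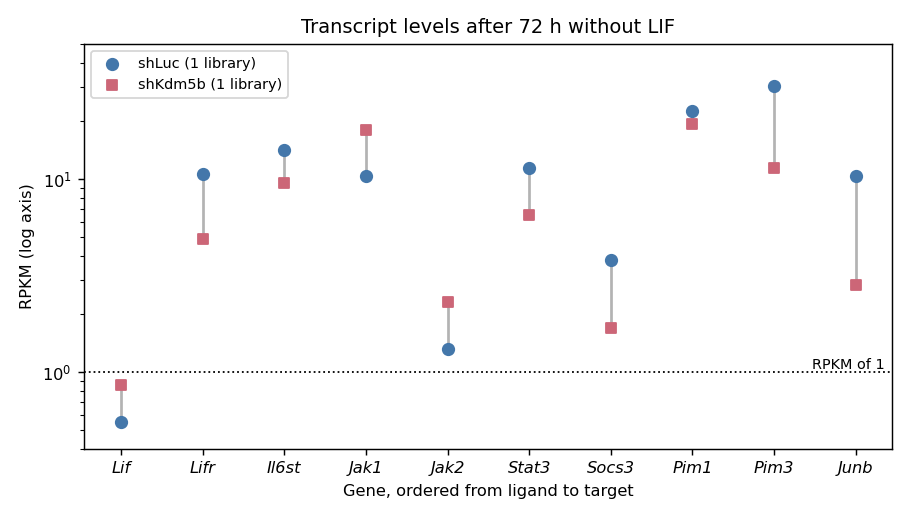
RPKM (log axis) of the 10 pathway genes in the shLuc library (blue circles) and the shKdm5b library (red squares), 1 library each, with a dotted line at an RPKM of 1. The square lies above the circle for *Lif*, *Jak1* and *Jak2* and below it for the other genes, with the widest gap at *Junb* (10.4 and 2.82 RPKM).

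*Lif* was a weakly expressed transcript in both cultures. It had 0.549 RPKM (163 reads) in shLuc and 0.855 RPKM (236 reads) in shKdm5b cells, a ratio of 0.56 (0.34 to 0.94), with RPKM below 1 in both. A second deposited entry of the gene, which shares reads with the first, gave 0.529 and 0.815 RPKM.

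The receptor chains were both less abundant in the shKdm5b library. *Lifr*, which encodes the chain specific to LIF and its close relatives, had 10.7 RPKM (8051 reads) in shLuc and 4.87 RPKM (3420 reads) in shKdm5b cells. Its ratio was -1.11 (-1.19 to -1.07), a 2.17-fold lower level. *Lifr* has a second, shorter entry of 2844 bases against 9663 bases, and this one went from 6.69 RPKM to 2.42 RPKM, a ratio of -1.43 (-1.62 to -1.32). The entries of a gene share reads, so the pair are not separate measurements, but both lay below 0 by more than the log2 of 1.5. *Il6st*, which encodes a signalling chain shared by cytokines of the IL-6 family, had 14.1 RPKM (6026 reads) in shLuc and 9.47 RPKM (3753 reads) in shKdm5b cells. At a ratio of -0.57 (-0.64 to -0.52), or 1.49-fold, it lay just inside the 1.5-fold limit and was not called. Its counting interval spanned the limit. The level of *Lifr* relative to *Il6st* was 0.754 in shLuc and 0.514 in shKdm5b cells.

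The kinases showed the opposite difference. *Jak1*, the kinase that gp130 signalling chiefly relies on, had 10.4 RPKM (4308 reads) in shLuc and 18.0 RPKM (6928 reads) in shKdm5b cells. The ratio was 0.78 (0.74 to 0.85), which is 1.72-fold higher. *Jak2*, a second kinase of the receptor complex, was much less abundant, with 1.32 RPKM (511 reads) and 2.29 RPKM (825 reads) and a ratio of 0.75 (0.63 to 0.96). *Jak1* thus exceeded *Jak2* by 7.87-fold in shLuc and 7.84-fold in shKdm5b cells, so the balance between them was nearly equal in the 2 libraries.

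*Stat3*, the transcription factor at the centre of the pathway, had 11.3 RPKM (3936 reads) in shLuc and 6.52 RPKM (2103 reads) in shKdm5b cells. The ratio was -0.79 (-0.88 to -0.72), or 1.73-fold lower, and its 3 deposited entries gave ratios from -0.79 to -0.78. *Jak1* and *Stat3* transcripts were nearly level in shLuc cells, with a *Jak1* to *Stat3* quotient of 0.916, whereas in shKdm5b cells the quotient was 2.76.

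*Socs3*, the feedback inhibitor, had 3.79 RPKM (806 reads) in shLuc and 1.70 RPKM (336 reads) in shKdm5b cells, a ratio of -1.11 (-1.35 to -0.97). Among the targets, *Junb*, which encodes a subunit of the AP-1 transcription factor, showed the largest difference of the 10 genes on the deposited scale, though not after the GC corrections, where *Lifr* (-1.10) or, with length corrected as well, *Lif* (1.07) lay farther from 0. It had 10.4 RPKM (1468 reads) in shLuc and 2.82 RPKM (371 reads) in shKdm5b cells, a ratio of -1.84 (-2.05 to -1.71), or 3.59-fold lower. That ratio lay at percentile 2.60 of the genes above 1 RPKM. *Pim3* and *Pim1* encode serine/threonine kinases that promote survival and growth. *Pim3* had 30.1 RPKM (5698 reads) and 11.3 RPKM (1995 reads), a ratio of -1.40 (-1.48 to -1.34). *Pim1* differed little, with 22.4 RPKM (3075 reads) and 19.3 RPKM (2458 reads) and a ratio of -0.22 (-0.30 to -0.14), close to the median of all genes. After the scaling to the median gene the ratio of *Pim1* was -0.05. On the deposited scale the target genes in the list therefore spread from about no difference to more than 3-fold. After the GC correction their ratios were 0.42 for *Pim1*, -0.48 for *Pim3* and -0.92 for *Junb*.

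The upstream sequence of the inhibitor and target genes was taken from RefSeq (GRCm38.p6), in which all 10 genes were matched. The STAT motif TTCNNNGAA, which reads the same on both strands, was searched in the 250 bases before each annotated start. It was present in 1 of the 10 genes, *Socs3*. The 10 genes have 12 windows, since some have more than 1 annotated start. Of the 32851 such windows of all genes, 7.02% held the motif. The stretch around the *Socs3* match is printed with the motif in capitals. It is chr11:117969502-117969530 on the minus strand, and runs from 164 to 136 bases before the RefSeq start, within the longer span that GENCODE M21 gives the gene.

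*Socs3*: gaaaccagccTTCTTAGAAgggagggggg

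The other inhibitor and target genes had no match to these letters in their windows, which says nothing about binding elsewhere. Their upstream stretches are shown because *Junb* and *Pim3* had the lowest ratios and *Pim1* was within 1.5-fold, with the letters CCAAT on either strand in capitals. These letters occur in 33.8% of all windows. The 10 genes have 12 windows, so a count of genes is not directly comparable with that share. *Lifr* had the letters in 1 of its 2 windows. They were present in at least 1 window of 6 of the 10 genes. These were *Il6st*, *Jak1*, *Junb*, *Lifr*, *Pim3* and *Stat3*, so the letters were present in genes called higher and in genes called lower, and were not found for *Socs3*, which was called lower. The windows of *Junb* and *Pim3* held 66.4% and 68.0% G and C, and those of the 2 annotated starts of *Pim1* held 82.4% and 48.0%. The stretches are chr8:84978749-84978998 (minus strand) for *Junb*, chr15:88861944-88862185 (plus strand) for *Pim3* and chr17:29490535-29490752 (plus strand) for the first of the annotated starts of *Pim1*, and each stops before the first exon.

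*Junb*: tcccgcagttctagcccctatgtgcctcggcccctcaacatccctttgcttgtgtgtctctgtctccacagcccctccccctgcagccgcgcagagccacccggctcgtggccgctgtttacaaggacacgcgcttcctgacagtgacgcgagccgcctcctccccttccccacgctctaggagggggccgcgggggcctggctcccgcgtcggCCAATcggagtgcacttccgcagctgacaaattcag

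*Pim3*: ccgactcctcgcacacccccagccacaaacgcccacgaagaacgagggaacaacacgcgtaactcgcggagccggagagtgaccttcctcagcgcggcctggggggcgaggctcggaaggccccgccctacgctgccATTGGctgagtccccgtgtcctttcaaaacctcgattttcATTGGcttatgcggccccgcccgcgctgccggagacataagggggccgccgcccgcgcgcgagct

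*Pim1*: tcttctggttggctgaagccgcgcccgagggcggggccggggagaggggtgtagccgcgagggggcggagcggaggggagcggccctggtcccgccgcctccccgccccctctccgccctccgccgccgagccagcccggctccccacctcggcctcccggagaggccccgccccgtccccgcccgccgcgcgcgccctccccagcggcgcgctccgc

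The order of levels differed between the libraries. In shLuc cells it ran from *Pim3* and *Pim1* through *Il6st* and *Stat3* to *Lifr*, *Jak1* and *Junb*, and then to *Socs3*, *Jak2* and *Lif*. *Lifr* (10.4 to 10.9 RPKM), *Jak1* (10.1 to 10.7 RPKM) and *Junb* (9.87 to 10.9 RPKM) overlapped in their Poisson counting intervals, so their order in shLuc cells was not resolved. In shKdm5b cells *Pim1* (18.5 to 20.1 RPKM) led, followed by *Jak1* (17.6 to 18.4 RPKM), at rank 2 against rank 6 in shLuc cells. *Junb* (2.54 to 3.13 RPKM) lay just above *Jak2* (2.14 to 2.46 RPKM). *Lif* was last in both libraries.

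**Figure D2:**
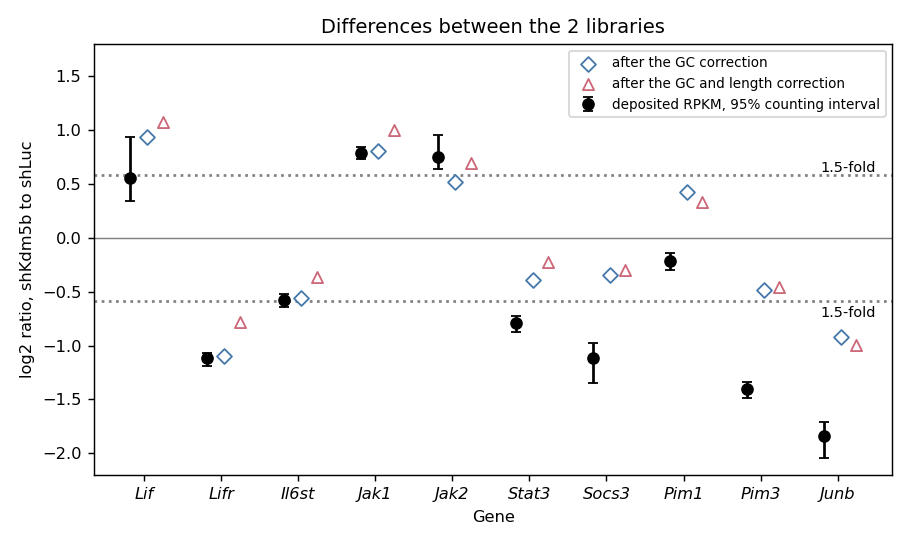
Log2 ratio of shKdm5b to shLuc for the 10 genes. Black circles with bars are the deposited RPKM with the 95% counting interval, blue diamonds the ratio after a correction for GC content, red triangles that after a correction for GC content and length, and dotted lines mark 1.5-fold. *Lifr* and *Junb* stay below the lower line and *Jak1* above the upper line on all 3 scales, whereas *Stat3*, *Socs3* and *Pim3* move inside it and *Pim1* crosses 0.

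Transcripts richer in G and C had lower ratios in this pair of libraries, which bears on the GC-rich genes of the pathway. GC content was 62.6% for *Junb*, 61.9% for *Pim3* and 58.7% for *Socs3*, against a median of 50.5% over genes above 1 RPKM, and when genes were ranked by GC content and cut into 10 equal bins all 3 lay in the bin of highest GC content, whose median ratio was -0.88. *Lifr* (47.6%), *Il6st* (47.4%) and *Jak1* (47.6%) shared a bin whose median ratio was -0.07. Within its bin, *Lifr* had a ratio below all but 4.51% of the genes, *Junb* below all but 8.67% and *Pim3* below all but 22.4%. *Socs3* had 37.8% of its bin below it and *Stat3* 33.6%, so neither stood far from genes of like GC content, while *Jak1* had 88.9% below it.

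When a lowess curve of the ratio on GC content was taken out, the ratio of *Lifr* was -1.10 and that of *Junb* -0.92, and both were still called lower. The ratios of *Stat3* (-0.39), *Socs3* (-0.35) and *Pim3* (-0.48) lay inside 1.5-fold. *Jak1* (0.81) was still called higher, *Jak2* (0.52) was not, and *Lif* (0.94) passed both limits. As deposited, *Lif* was below 1 RPKM in both libraries. It passed the RPKM limit only because the correction raised its shKdm5b level and left the shLuc level as it was. On this scale 2 of the 10 genes were higher and 2 lower, beside 19.1% and 17.9% of all genes. The part of GC content in these ratios was not tested. *Jak1* and *Lifr*, which have like GC content, differed from each other by 1.90 on the log2 scale. The curve depends on GC content alone, so the correction leaves this difference nearly unchanged by construction (1.91).

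**Figure D3:**
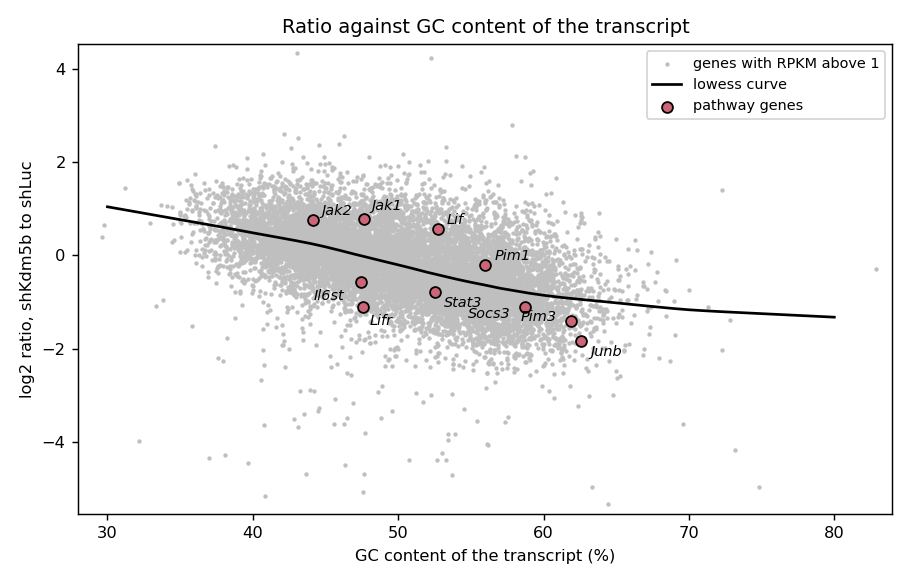
Log2 ratio of shKdm5b to shLuc (vertical) against transcript GC content in percent (horizontal) for genes with RPKM above 1 (grey), with the lowess curve (black) and the 10 pathway genes (red). *Socs3*, *Pim3* and *Junb* sit at 58.7% to 62.6% GC where the curve is low, and *Lifr* and *Jak1* sit on opposite sides of the curve near 47.6% GC.

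The relatives of these genes were examined through lists of 62 further genes of the pathway, 53 of them with RPKM above 1. Of these, 9 were called higher and 15 lower, which are 17.0% and 28.3% of the 53 genes, near the 16.3% and 32.0% of all genes. After the scaling to the median gene 14 were higher and 11 lower, beside 22% and 25.5% of all genes. After the GC correction 18 were higher and 6 lower, beside 19.1% and 17.9% of all genes, and the median ratio was 0.15. On the deposited scale the median ratio of the 53 genes was -0.19, close to the -0.21 of all genes.

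Among the JAK and STAT family, 3 of 8 genes were called lower and none higher, beside 32.0% and 16.3% of all genes. *Tyk2*, a further kinase of the IL-6 and interferon receptors, had 4.99 RPKM in shLuc and 1.86 RPKM in shKdm5b cells, a ratio of -1.38. *Jak3*, which serves receptors of the common gamma chain, had 1.89 and 0.804 RPKM, a ratio of -1.14. *Stat2* (6.41 and 4.23 RPKM, ratio -0.59) was just past the limit, but not after the scaling to the median gene (-0.43), and *Stat6* (6.70 and 4.98 RPKM, ratio -0.42) was not. On the deposited scale the JAK kinases therefore split, with *Jak1* and *Jak2* higher and *Tyk2* and *Jak3* lower. After the GC correction *Tyk2* (-0.69) was still called lower and *Jak1* (0.81) higher. *Jak3* (-0.31) and *Jak2* (0.52) were not called on that scale, and *Stat4* (-0.61) was called lower. The summed level of the 4 kinases was 18.6 RPKM in shLuc and 22.9 RPKM in shKdm5b cells, of which *Jak1* made up 55.9% and 78.4%.

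The PIM kinases also split. *Pim2*, listed here among the STAT3 targets, had 58.6 RPKM in shLuc and 106 RPKM in shKdm5b cells, a ratio of 0.86 (0.82 to 0.90), beside -0.22 for *Pim1* and -1.40 for *Pim3*. All 3 transcripts are rich in GC, and *Pim2* and *Pim3* differed by 2.26 on the log2 scale. Their GC content is alike (60.4% and 61.9%), so the GC correction could change this difference only little by construction (2.21). The summed PIM level was 111 RPKM in shLuc and 137 RPKM in shKdm5b cells, and the share of *Pim2* in it was 52.7% and 77.6%.

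Of 15 inhibitors of the pathway, 2 were called higher and 5 lower, beside 16.3% and 32.0% of all genes. After the scaling to the median gene 3 were higher, with *Pias1* added (0.54 as deposited, 0.70 scaled), and 4 lower. The shares of all genes on that scale were 22% and 25.5%. *Ptpn2*, a phosphatase that acts on JAK kinases and STAT proteins, had 27.5 RPKM in shLuc and 65.2 RPKM in shKdm5b cells, a ratio of 1.24 (1.19 to 1.30), and *Socs2*, a relative of *Socs3* that restrains growth hormone signalling, had 25.4 and 43.5 RPKM, a ratio of 0.77. Both were still called after the GC correction, at 0.90 and 1.09. *Ptpn11*, which encodes the phosphatase SHP2 that couples gp130 to the ERK pathway, had 17.5 and 7.59 RPKM, a ratio of -1.19, and -0.84 after the correction. *Pias4* (-0.98), *Ptpn1* (-0.78), *Socs7* (-0.75) and *Cish* (-0.63) were called lower on the deposited scale but not after the GC correction, and *Cish* was also not called after the scaling to the median gene (-0.48). *Socs7*, *Cish* and *Pias1* were named after their values were seen, to complete the count. *Pias2*, the most abundant of the list in shLuc cells, had 55.4 and 45.2 RPKM and was not called. On the deposited scale *Socs3* was thus lower while *Socs2* was higher, and the inhibitors had no common direction. After the GC correction *Socs3* (-0.35) was within 1.5-fold.

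The 18 STAT3 targets other than *Pim1*, *Pim3* and *Junb* had a median ratio of 0.10, with 5 called higher and 3 lower, beside 16.3% and 32.0% of all genes. After the scaling to the median gene 7 were higher, with *Gbx2* and *Zfp36* (0.67 each) added, and 3 lower. The shares of all genes on that scale were 22% and 25.5%. *Cebpd*, a transcription factor of the acute phase response, had 2.22 RPKM in shLuc and 7.84 RPKM in shKdm5b cells, a ratio of 1.78 (1.66 to 1.99). *Icam1*, an adhesion molecule, had 9.46 and 18.5 RPKM, a ratio of 0.96. *Bcl6* (0.98), a transcriptional repressor with 1.03 RPKM at most, *Pim2* (0.86) and *Ier3* (0.69) were also higher. *Irf1*, an interferon-response factor, had 32.6 and 13.8 RPKM, a ratio of -1.23, *Bcl2l1*, which encodes the survival protein BCL-XL, had 10.7 and 4.85 RPKM, a ratio of -1.13, and *Ccnd1*, which encodes cyclin D1, had a ratio of -0.93. *Mcl1*, a survival gene and the most abundant of the list, had 212 and 221 RPKM. After the GC correction 11 of the 18 were called higher and 2 lower, beside 19.1% and 17.9% of all genes, with a median of 0.88. How many targets lay above the control thus depends on that correction. *Ier3*, *Ccnd1* and *Zfp36* were named after their values were seen, to complete the count.

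The targets best known for carrying LIF signalling into the self-renewal network, named here for that role after their values were seen, were all within 1.5-fold. *Tfcp2l1* (listed in the tables under an older symbol and matched by its RefSeq accession) had 8.18 RPKM in shLuc and 7.33 RPKM in shKdm5b cells, a ratio of -0.16. *Klf4* had 8.87 and 10.2 RPKM, a ratio of 0.20, and *Gbx2* had 3.93 and 5.64 RPKM, a ratio of 0.51, which passed the limit after the scaling to the median gene (0.67). *Klf5* (-0.14) and *Myc* (-0.30) had small ratios too. None of these 5 genes was called on the deposited scale, though *Klf4* (0.75) and *Gbx2* (1.33) were called higher after the GC correction.

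*Junb* was compared with other AP-1 and immediate early genes, which are induced within minutes by many signals. Of 10 genes, 7 had RPKM above 1, with 4 lower and 1 higher, beside 32.0% and 16.3% of all genes. *Ier2* had 75.1 RPKM in shLuc and 31.0 RPKM in shKdm5b cells (ratio -1.28), *Egr1* had 7.84 and 3.97 RPKM (ratio -0.96), *Jund* had 41.1 and 24.7 RPKM (ratio -0.73) and *Atf3* had 1.20 and 0.759 RPKM (ratio -0.60). *Fos* was higher, with 1.84 and 3.51 RPKM (ratio 0.90), and *Dusp1* (28.2 and 39.8 RPKM, ratio 0.50) was within the limit as deposited and past it after the scaling to the median gene (0.66). After the GC correction none of the 7 was called lower and 3 were called higher, beside 17.9% and 19.1% of all genes. On that scale *Junb*, at -0.92, was still called lower. *Jund* and *Atf3* were also within 1.5-fold after the scaling to the median gene.

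The other cytokines and receptors that signal through gp130 were scarce. Of 11 genes, 6 had an RPKM of 1 or less in both libraries, among them, chosen after their values were seen, *Il6* (6 and 5 reads), *Il6ra* (94 and 25 reads) and *Osm* (45 reads and 1 read). *Cntfr*, the receptor chain for CNTF, had the highest level of the list at 4.30 and 6.06 RPKM (ratio 0.48). It was within 1.5-fold as deposited and was called higher after the scaling to the median gene (0.65). Its level was below that of *Lifr* in shLuc cells and above it in shKdm5b cells.

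**Figure D4:**
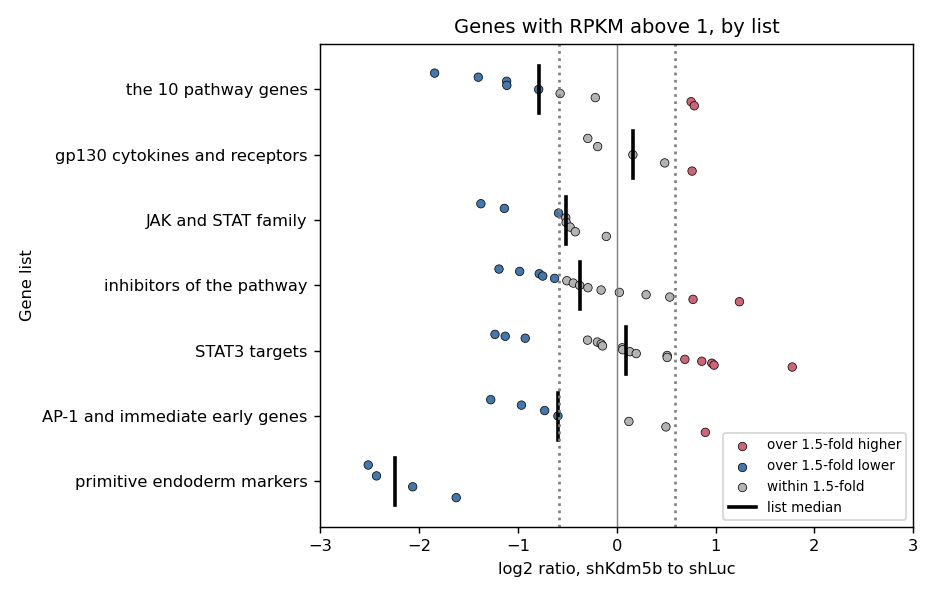
Log2 ratio of shKdm5b to shLuc (horizontal) for the genes with RPKM above 1 in each list (rows), with black bars at the list medians, dotted lines at 1.5-fold, red for called higher, blue for called lower and grey for neither. The medians are -0.79 for the pathway genes, 0.16 for the gp130 cytokines and receptors, -0.51 for the JAK and STAT family, -0.38 for the inhibitors, 0.10 for the STAT3 targets, -0.60 for the immediate early genes and -2.25 for the primitive endoderm markers.

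The makeup of the cultures was read from marker genes. Pluripotent cell markers were abundant in both libraries, from 65.4 to 1096 RPKM in shLuc and from 41.2 to 1651 RPKM in shKdm5b cells. Of the 10, *Pou5f1* (ratio -1.76) and *Esrrb* (ratio -0.96) were called lower and *Dppa5a* (ratio 0.59) higher, beside 32.0% and 16.3% of all genes. *Utf1* (444 and 362 RPKM) was not called. After the GC correction *Pou5f1* (-1.03) was still called lower and *Esrrb* (-0.31) was not. *Dppa5a* (0.75) and *Utf1* (0.68) were called higher on that scale, where 19.1% of all genes were called higher and 17.9% lower. With length corrected as well, the ratios of *Dppa5a* and *Utf1* were -0.03 and 0.31. Markers of primitive endoderm, a cell type that appears early in ES cell differentiation, differed in the same direction as *Lifr*. All 8 had a negative ratio, and the median ratio of all genes above 1 RPKM was negative too (-0.21). Only 4 of the 8 had an RPKM above 1, and these 4 were called lower, beside 32.0% of all genes. After the GC correction 4 were called lower, beside 17.9% of all genes. The summed level of the 8 was 25.4 RPKM in shLuc and 4.28 RPKM in shKdm5b cells. *Dab2* went from 18.5 to 3.15 RPKM, *Lama1* from 1.38 to 0.175 RPKM, *Gata4* from 2.58 to 0.539 RPKM and *Gata6* from 1.01 to 0.258 RPKM. *Afp* had 65 reads in shLuc and 0 in shKdm5b cells. The part of such cells in the lower *Lifr*, *Stat3* and *Junb* levels was not tested. Of 10 fibroblast markers, which the feeder cells would bring, 9 had an RPKM of 1 or less in both libraries, their summed level was 5.50 and 6.43 RPKM, *Thy1* made up most of it (4.08 and 4.59 RPKM), *Pdgfrb* came next (0.501 and 0.819 RPKM), and *Fap* and *Postn* each had 3 reads in shLuc and 0 in shKdm5b cells. Blood cell markers summed to 2.49 and 2.03 RPKM, most of it *Cd34* (2.15 and 1.72 RPKM) with *Itgam* next (0.282 and 0.182 RPKM), and *Hbb-b1* had no reads in either library.

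The positions of the genes and their overlaps were taken from GENCODE M21 (GRCm38), while the reads were mapped to mm8, so these positions describe the genes and not the alignment. *Lifr* lies on chromosome 15 from 7090614 to 7197489, *Jak1* on chromosome 4 from 101152367 to 101265282, *Stat3* on chromosome 11 from 100885098 to 100939540 and *Junb* on chromosome 8 from 84974484 to 84978718. Exons of *Junb* share 173 bases with *Prdx2*, those of *Pim1* 488 bases with *Gm26885*, those of *Stat3* 72 bases with *Stat5a* and those of *Jak1* 4 bases with *Raver2*, each on the opposite strand. The library protocol describes no step that keeps the strand, so reads in the shared bases cannot be assigned to one gene. The other 6 genes share no exon bases with another gene.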

How the data were processed

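RNA-Seq of polyadenylated RNA was analysed from 1 shLuc and 1 shKdm5b library. For each of 27405 RefSeq entries the authors deposited a whole-number read count, the transcript length and an RPKM value, which they computed from the count, the length and the depth. The authors also deposited the mapped reads, 1 line each, which gave the depth. Per the labels, the processing notes list CASAVA 1.0, Bowtie 0.12.7 and mm8. The counting program is not given in the sources used here. Each symbol was represented by its entry of highest mean RPKM. The study's methods name edgeR with an FDR, a fold above 1.5 and an RPKM limit. Without replicates the FDR needs an assumed spread, so the fold and RPKM limits were used alone, with a pseudocount of 0.1, and no test was run. Members and gene lists were chosen with earlier results of these data known. Beside all 10 members and *Kdm5b*, the text names per list up to 5 called genes by size and the 2 most abundant, and others, such as markers with few or no reads, were named after their values were seen. Some genes that this rule takes are not reported here. GC content came from GENCODE M21 transcripts of the same accession (97.1% of symbols), and the corrections used lowess with a fraction of 0.3, the curve being taken out of the shKdm5b RPKM. Alternatives were pseudocounts of 1 and 0.01, 3 scalings (median, 75th percentile and TMM from edgeR 4.0.16 in R 4.3.3), summed entries, other limits and the GC corrections. The steps were tested on simulated data. Python 3.11.15, pandas 2.3.3, NumPy 2.4.6, SciPy 1.17.1 and statsmodels 0.14.6 were used.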

Additional observations from a re-analysis of the deposited data

How the results depend on the processing

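The count of 2 higher genes became 1 (*Jak1*) with a pseudocount of 1 or an RPKM limit of 11, and 0 with a fold limit of 2. It was 3 (*Lif*, *Jak1* and *Jak2*) with summed entries and with GC and length both corrected, and under the GC correction alone the 2 genes were *Lif* and *Jak1*. Summing counts the reads shared by the entries of *Lif* more than once, which carries it past the limits. The GC corrections do so by raising its shKdm5b level alone. The count of 5 lower genes became 2 under the GC correction and 2 when length was corrected as well (*Lifr* and *Junb* in both), and 2 (*Stat3* and *Pim3*) with the RPKM limit of 11. It was 4 under TMM scaling, where *Stat3* was within the limit. The median ratio of the 10 genes, -0.68, was -0.52 after median scaling, -0.46 after TMM scaling, -0.49 after 75th percentile scaling, -0.37 with the GC correction and -0.26 with length corrected as well. Scalings shift all genes alike by construction, and for the GC corrections the cause was not tested. *Lifr* (-1.24 to -0.78), *Junb* (-1.88 to -0.92) and *Jak1* (a ratio of at least 0.74) kept their call under all 8 alternatives for the ratio. *Pim1* was the 1 gene whose ratio changed sign (-0.22, against 0.42 under the GC correction, 0.33 with length corrected as well and about 0 under TMM). The list medians kept their sign under these alternatives except for the inhibitors (-0.38, 0.07 under the GC correction) and the immediate early genes (-0.60, 0.36 under the GC correction and 0.43 with length corrected as well). No paired analysis was possible because only 1 library per condition was analysed here, and none could be left out. Depth limits *Lif* (163 and 236 reads) and the gp130 ligands with few reads.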
